A study of Mus musculus with 4 samples.

Results

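N-methyl-D-aspartate (NMDA) receptors are glutamate-gated cation channels, and the 7 genes that encode their subunits were examined in RNA sequencing libraries of FACS-enriched tdTomato-positive cells of the embryonic mouse brain (FACS, fluorescence-activated cell sorting). The genes were chosen by symbol (*Grin1*, *Grin2a*, *Grin2b*, *Grin2c*, *Grin2d*, *Grin3a* and *Grin3b*) in the GENCODE M21 annotation, and all 7 were found among the 55573 Ensembl genes counted in each library. Cells were dissociated from the basal telencephalon. All embryos carried *Hmx3-Cre* and the tdTomato reporter on a C57BL/6J background and were taken at embryonic day (E) 16, with the day of insemination counted as E1. The *Dnmt1* wild-type (WT) group comprised 2 libraries from 12 embryos, and the *Dnmt1* knockout (KO) group 2 libraries from 6 embryos in which Cre excised a floxed pair of exons of *Dnmt1 loxP2*, which leaves a null allele. *Hmx3-Cre* is active in postmitotic cells of the preoptic area (POA), so that the deletion and the reporter mark the same lineage. The embryos of a genotype were pooled. The series' design text calls the libraries biological replicates and the study's methods describe technical duplicates of pools, so that the SDs and p-values below measure the spread between libraries and need not cover the spread between embryos.

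A functional NMDA receptor contains the obligatory GluN1 subunit, encoded by *Grin1*, which binds the coagonists glycine and D-serine, together with glutamate-binding GluN2 subunits, encoded by *Grin2a* to *Grin2d*. The GluN3 subunits, encoded by *Grin3a* and *Grin3b*, bind glycine and lower the calcium permeability of receptors that contain them. In rodent forebrain, GluN2B and GluN2D are known as the prenatal GluN2 subunits, GluN2A rises after birth, and GluN2C is known from cerebellar granule cells and from astrocytes.

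The library totals ranged from 8075102 to 9995968 counts, at which 3 counts, taken as the detection floor, correspond to 0.294 to 0.372 CPM (the usual library-size unit, here with sizes adjusted by the trimmed mean of M values, TMM). Mitochondrial rRNA took 8.66% of the counts of WT replicate 1 and 1.51% to 2.32% in the other libraries. No library was a copy of another, since the chi-square per degree of freedom was 57.2 for the WT pair and 4.28 for the KO pair. The targeted gene *Dnmt1* lay lower in both KO libraries (283 and 281 CPM) than in both WT libraries (385 and 446 CPM), with a log2 fold change of -0.56 and an edgeR adjusted p of 0.0511. It passed with DESeq2 (adjusted p = 0.00843), limma-voom (0.0358), a replicate block (0.0149) and the GC and length offsets (0.00741), and did not pass with library size only (0.151), the upper quartile (0.0645), at least 10 counts in every library (0.0739), or without KO replicate 1 or 2 (0.386 and 0.521, at -0.55 each). Scaled to neuronal markers it had -0.05. Reads of the remaining exons of a deleted allele are still counted. The labelled cell type was checked with marker genes: *Hmx3*, *Gad1*, *Gad2* and *Dlx1* were detected in every library, and 10 markers of neurons summed to between 4540 and 6740 CPM. Markers of oligodendrocyte precursors, led by *Pdgfra*, also summed to between 1280 and 1710 CPM in the same libraries. The 5 markers of glutamatergic neurons summed to 409 and 382 CPM in WT and 205 and 231 CPM in KO. The 4 markers of the *Hmx3* lineage summed to 272 and 274 CPM in WT and 216 and 242 CPM in KO. Across all 16832 genes tested, 1233 were higher and 96 lower in KO (edgeR, adjusted p under 0.05), or 7.9% in all, 7.33% higher and 0.57% lower. With offsets for GC content and gene length, 1903 were higher and 798 lower.

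Of the 7 subunit genes, 1 differed between the genotypes. *Grin2c* rose from 4 and 8 counts in the WT libraries, close to the detection floor, to 2463 and 2817 in the KO libraries, where it was the most abundant subunit gene per kilobase. This is 14.3% of the members, beside 7.9% of all genes tested. *Grin1*, *Grin2a*, *Grin2b*, *Grin2d*, *Grin3a* and *Grin3b* did not pass the threshold. All 7 genes passed the filter on low counts, but *Grin2c* did so through its KO libraries alone, so that this count and share describe the members and are no support. With at least 10 counts in every library it is not tested. *Grin3b* and *Grin2c* were the only members with under 10 counts in any library.

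**Figure D1:**
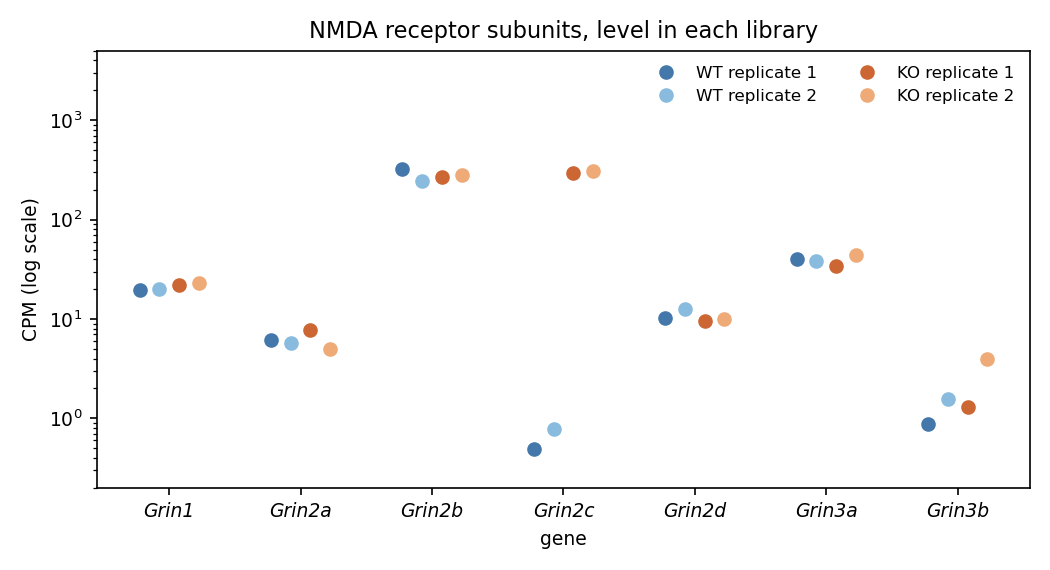
Level of each NMDA receptor subunit gene in CPM (log axis) in the 2 WT and 2 KO libraries, 1 point per library. *Grin2c* lies below 1 CPM in both WT libraries and at 293 and 310 CPM in the KO libraries, whereas the other 6 genes did not pass the edgeR test.

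Because *Dnmt1* encodes the maintenance DNA methyltransferase, which acts on CpG sites, the sequence before the start of the gene that differed, *Grin2c*, is shown beside that of its obligatory partner *Grin1*, which did not pass the test. Both are the 250 bases before the RefSeq start site in GRCm38.p6, on the minus strand, 5′ to 3′, with CpG dinucleotides in capitals. The *Grin2c* sequence lies at chr11:115267244-115267493 and that of *Grin1* at chr2:25319188-25319437.

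Grin2c: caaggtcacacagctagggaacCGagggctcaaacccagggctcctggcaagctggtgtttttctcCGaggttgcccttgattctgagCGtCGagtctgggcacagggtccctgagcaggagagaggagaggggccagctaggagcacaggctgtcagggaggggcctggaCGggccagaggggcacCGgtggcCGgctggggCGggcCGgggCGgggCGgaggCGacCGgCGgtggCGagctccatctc

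Grin1: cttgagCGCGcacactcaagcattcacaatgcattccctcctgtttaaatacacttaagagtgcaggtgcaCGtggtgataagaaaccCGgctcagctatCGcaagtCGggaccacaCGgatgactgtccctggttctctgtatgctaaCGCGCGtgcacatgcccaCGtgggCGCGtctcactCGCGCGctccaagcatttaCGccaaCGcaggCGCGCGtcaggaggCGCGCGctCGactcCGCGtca

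The *Grin2c* sequence held 15 CpGs, a number reached by 27.3% of the 32851 RefSeq promoter windows of the same length, whose median was 6. The *Grin1* sequence held 27 CpGs, reached by 8.56% of the windows. Of the 7 members, 4 had an entry: *Grin2d* held 9 CpGs and *Grin3b* held 2. The *Grin2d* window, at chr7:45866682-45866931, lies inside the GENCODE gene, which starts on the minus strand at 45878378. It is thus not the same kind of window as those of *Grin2c* and *Grin1*. In the *Grin2c* sequence most of the CpGs lie in its last part, next to the start site, where the motif GGGCGG (the GC box, searched on both strands, each match of which includes a CpG) occurred 3 times. This motif was found in 32.7% of all windows and in none of the sequences of *Grin1*, *Grin2d* and *Grin3b*. These are descriptions of the letters, and the methylation of these windows was not analysed here.

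*Grin1*, which encodes the GluN1 subunit of all NMDA receptors, occupies 25291181 to 25319187 of the minus strand of chromosome 2 (GRCm38). It was counted 159 and 204 times in WT and 186 and 210 times in KO, or 19.7 and 20.0 CPM in WT and 22.1 and 23.1 CPM in KO. Both KO libraries lay slightly above both WT libraries. Such a separation, in either direction, was found for 53.5% of all genes tested, and with KO above WT for 28.3%. The log2 fold change of *Grin1* was 0.19 (SE, standard error, 0.19, 95% interval -0.25 to 0.63, edgeR adjusted p = 0.601). The antisense gene *Grin1os* overlaps 13.47% of the exonic bases of *Grin1*. It had at most 10 counts in any library, and where the genes overlap their reads are not separable, since the strand setting of the counting is not given in the sources used here.

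*Grin2b*, on chromosome 6 from 135713233 to 136173511, encodes the GluN2B subunit and was the most abundant subunit gene per kilobase in WT. It was counted 2625 and 2498 times in WT and 2265 and 2543 times in KO. In CPM these were 326 and 245 in WT and 269 and 280 in KO, so that both KO libraries lay between the WT libraries. The log2 fold change of *Grin2b* was -0.05 (SE 0.17, 95% interval -0.44 to 0.33, edgeR adjusted p = 0.884). Its sign turned with the scaling, with 0.07 for library size only.

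*Grin2a*, on chromosome 16 from 9567898 to 9995560, encodes GluN2A, the subunit that is known to replace part of GluN2B after birth. With 49 and 59 WT counts and 65 and 45 KO counts it held few of the reads in both genotypes. In CPM it had 6.08 and 5.78 in WT and 7.73 and 4.96 in KO, so that the WT libraries lay between the KO libraries. The log2 fold change of *Grin2a* was 0.09, with a 95% interval from -0.70 to 0.89 (edgeR adjusted p = 0.906).

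*Grin2d*, on chromosome 7 from 45831883 to 45878378, encodes GluN2D, which forms slowly deactivating receptors and is known from interneurons. It was counted 82 and 129 times in WT and 80 and 90 times in KO, or 10.2 and 12.6 CPM in WT and 9.51 and 9.91 CPM in KO. Both KO libraries were under both WT libraries, as were those of 25.2% of all genes tested. The log2 fold change of *Grin2d* was -0.24 (SE 0.26, 95% interval -0.85 to 0.37, edgeR adjusted p = 0.64). It was -0.39 without WT replicate 1, -0.08 without WT replicate 2 and -0.05 with offsets for GC content and length. The antisense gene *Gm45441*, with at most 4 counts in any library, overlaps 9.66% of its exonic bases.

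Among the GluN3 genes, *Grin3a* was more abundant per kilobase than *Grin3b* in every library. *Grin3a*, on chromosome 4 from 49661611 to 49845744, was counted 320 and 388 times in WT and 285 and 401 times in KO, which corresponds to 39.7 and 38.0 CPM in WT and to 33.9 and 44.2 CPM in KO. The WT libraries lay between the KO libraries, and the log2 fold change of *Grin3a* was 0.01 (95% interval -0.41 to 0.43, edgeR adjusted p = 0.99). *Grin3b*, on chromosome 10 from 79970715 to 79977190, was counted 7 and 16 times in WT and 11 and 36 times in KO. Its level in KO rested on KO replicate 2, with 3.96 CPM beside 1.31 CPM in KO replicate 1, and the latter lay between the WT libraries (0.869 and 1.57 CPM). The log2 fold change of *Grin3b* was 1.09 with a standard error of 0.68 (95% interval -0.48 to 2.66, edgeR adjusted p = 0.382), and without KO replicate 2 it was 0.09. The gene *Tmem259* on the opposite strand overlaps 32.13% of the exonic bases of *Grin3b* and had 796 to 1233 counts, so that the few reads of *Grin3b* are uncertain.

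**Figure D2:**
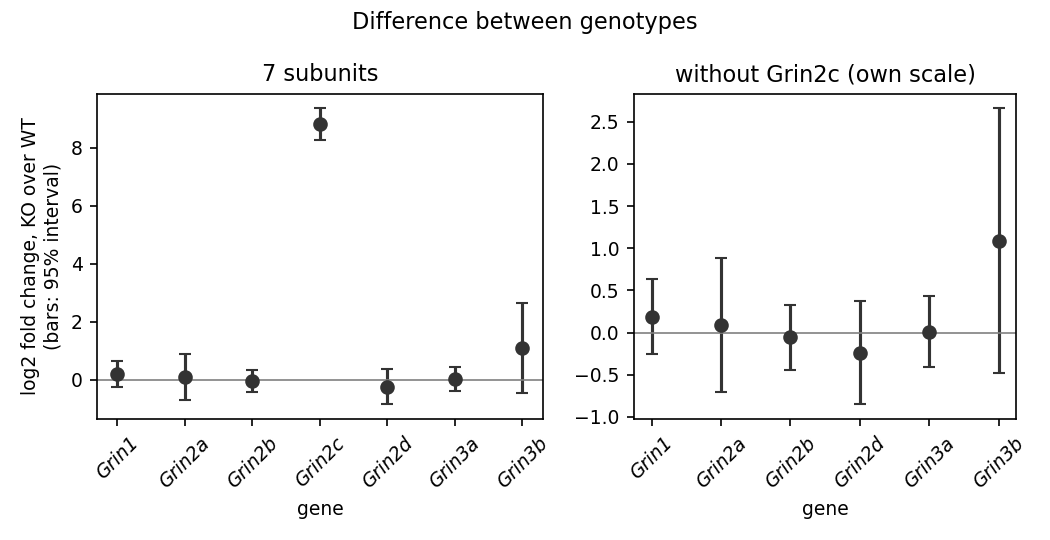
Log2 fold change between KO and WT from the edgeR fit for the 7 genes (left) and for the 6 genes without *Grin2c* on an axis of their own (right), with bars for the 95% interval. *Grin2c* lies at 8.82, and the intervals of the other 6 genes include 0.

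*Grin2c*, at 115249169 to 115267243 of the minus strand of chromosome 11, encodes GluN2C, which forms receptors with low sensitivity to magnesium block. It was counted 4 and 8 times in WT and 2463 and 2817 times in KO. Its level was 0.497 and 0.784 CPM in WT and 293 and 310 CPM in KO, and the genotypes were far apart. The log2 fold change of *Grin2c* was 8.82 (SE 0.24, 95% interval 8.26 to 9.37, edgeR adjusted p = 1.79e-06). The ratio of the mean CPM was 471. Summed over the libraries, 12 counts stood against 5280, a scaled ratio of 459 with an exact counting interval from 263 to 890. The part of the exons shared with another annotated gene was 1.81%, with a miRNA gene on the opposite strand. With any 1 library left out, the log2 fold change lay between 8.56 and 9.19.

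The rise of *Grin2c* went along with a rise of marker genes of astrocytes, a cell type known to express it. All 12 astrocyte markers passed the edgeR threshold and were higher in KO, and their median log2 fold change was 4.29 beside -0.03 over all genes tested (4.20 with the 2 markers that lack WT counts set against the floor of 3 counts per library). Their summed level was 262 to 277 CPM in WT and 3790 to 3990 CPM in KO. Within the list, *Gfap*, which encodes the intermediate filament of astrocytes, and *Agt*, which encodes angiotensinogen, had no count in either WT library. *Gfap* had 149 and 198 counts in KO, at least 59.3-fold higher against that floor, and *Agt* had 51 in each KO library, at least 17.5-fold higher. *Gjb6*, which encodes the gap junction protein connexin 30, was counted 2 and 1 times in WT and 974 and 1022 times in KO. *Aqp4*, which encodes the water channel of astrocyte endfeet, was counted 0 and 4 times in WT and 591 and 567 times in KO. The increase was smaller for *Sox9* (log2 fold change 0.96) and *S100b* (1.40), which were detected in all libraries. The part of such cells in the level of *Grin2c* was not tested, and in bulk libraries more cells of a type and more RNA per cell cannot be told apart. The astrocyte list was written with earlier results of these data known.

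**Figure D3:**
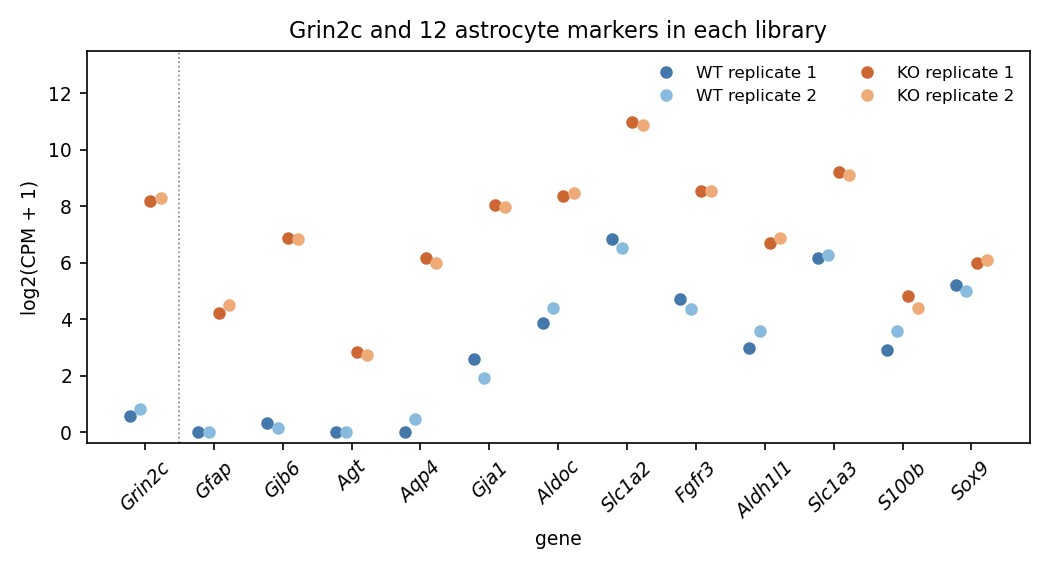
Level of *Grin2c* and of 12 astrocyte markers as log2(CPM + 1), 1 point per library, with the markers ordered by their log2 fold change. For each gene both KO libraries lie above both WT libraries, and *Grin2c* rises by 8.82 (log2, edgeR fit), beside 0.96 (*Sox9*) to 9.32 (*Gjb6*) among the markers with WT counts.

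Markers of other cell types were counted in the same way, beside 7.33% of all genes higher and 0.57% lower in KO. Of 7 markers of myelinating oligodendrocytes, 6 were higher in KO, and their summed level was 130 and 154 CPM in WT and 578 and 557 CPM in KO. The log2 fold changes of these 7 ran from 0.45 (*Mog*) to 5.82 (*Mobp*), with a median of 2.58. Of 7 mural cell markers, 6 were higher, and the median log2 fold change of the list was 2.34. Its gene *Acta2* had no count in either WT library and 652 and 800 counts in KO. The summed level of the mural markers was 305 and 324 CPM in WT and 696 and 754 CPM in KO. The largest part of this sum in WT was *Cspg4* (252 and 263 CPM in WT and 320 and 379 CPM in KO), the 1 mural marker that did not pass and also a marker of oligodendrocyte precursors. Of 5 markers of oligodendrocyte precursors, cells that are known to carry NMDA receptors with GluN3A, 1 (*Olig2*) was higher in edgeR and 2 with DESeq2. Their summed level was 1280 and 1340 CPM in WT and 1630 and 1710 CPM in KO. Of 6 radial glia markers, 1 (*Hes1*) was higher. Of 10 markers of neurons, *Stmn2*, *Elavl4* and *Syt1* were lower in KO in edgeR, while DESeq2 called 5 lower and limma-voom 4. The neuronal markers summed to 6740 and 6200 CPM in WT and to 4600 and 4540 CPM in KO, and their log2 fold changes ran from -0.81 (*Elavl4*) to 0.03 (*Rbfox3*) with a median of -0.56. Of 5 markers of glutamatergic neurons, *Neurod6* and *Neurod2* were lower in edgeR, while DESeq2 called 3 lower. The 7 markers of GABAergic neurons had log2 fold changes between -0.60 and -0.11, and the 4 markers of the *Hmx3* lineage between -1.13 and -0.03, with none past the threshold in edgeR, DESeq2 or limma-voom, and with 2 and 1 genes at an unadjusted edgeR p under 0.05. When the libraries were scaled to the 10 neuronal markers, a choice made after seeing the data that moved the median of all genes from -0.03 to 0.49, *Grin1* passed the threshold, at 0.70 on the log2 scale (edgeR adjusted p = 0.042), while *Grin2b* had 0.47 (edgeR adjusted p = 0.0604).

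The order of the subunit genes was compared per kilobase of merged exons, since reads accumulate with transcript length and the exons of *Grin2b* sum to 24842 bases and those of *Grin2c* to 5037. In WT, *Grin2b* stood first with 11.5 ± 2.31 CPM per kilobase (SD, n = 2), followed by *Grin3a* with 3.17 ± 0.0983, *Grin1* with 2.05 ± 0.0183 and *Grin2d* with 1.71 ± 0.261. *Grin3b* (0.37 ± 0.15) and *Grin2a* (0.331 ± 0.0119) came next and overlapped in their libraries, and *Grin2c* was last with 0.127 ± 0.0403. In KO, *Grin2c* stood first with 59.9 ± 2.45 CPM per kilobase (SD, n = 2), above *Grin2b* with 11.1 ± 0.307. The order below them was that of WT, with *Grin3a* at 3.18 ± 0.592, *Grin1* at 2.33 ± 0.074, *Grin2d* at 1.46 ± 0.0426, and *Grin3b* and *Grin2a* again overlapping. These values depend on the length used. Per kilobase of coding sequence, *Grin2c* had 81.1 ± 3.32 and *Grin2b* 61.8 ± 1.72 CPM in KO. Per kilobase of the longest transcript, *Grin1* and *Grin3a* overlapped in KO.

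Within a library, the shares of the 4 GluN2 transcripts do not depend on the scaling between libraries. Per length of merged exons, *Grin2b* made up 87.0% and 80.6% of the GluN2 mRNA in the WT libraries and 15.3% and 15.1% in the KO libraries. *Grin2c* made up 0.654% and 1.27% in WT and 82.1% and 82.5% in KO. *Grin2d* held 10.1% and 15.5% in WT and 2.02% and 1.99% in KO, and *Grin2a* 2.25% and 2.64% in WT and 0.608% and 0.37% in KO. For each of these shares the genotypes did not overlap, but with 2 libraries against 2 an exact two-sided permutation test cannot give a p below 0.333, which is the value it gave. Per coding length the share of *Grin2b* was 93.4% ± 1.84 (SD, n = 2) in WT and 42.1% ± 0.166 (SD, n = 2) in KO.

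**Figure D4:**
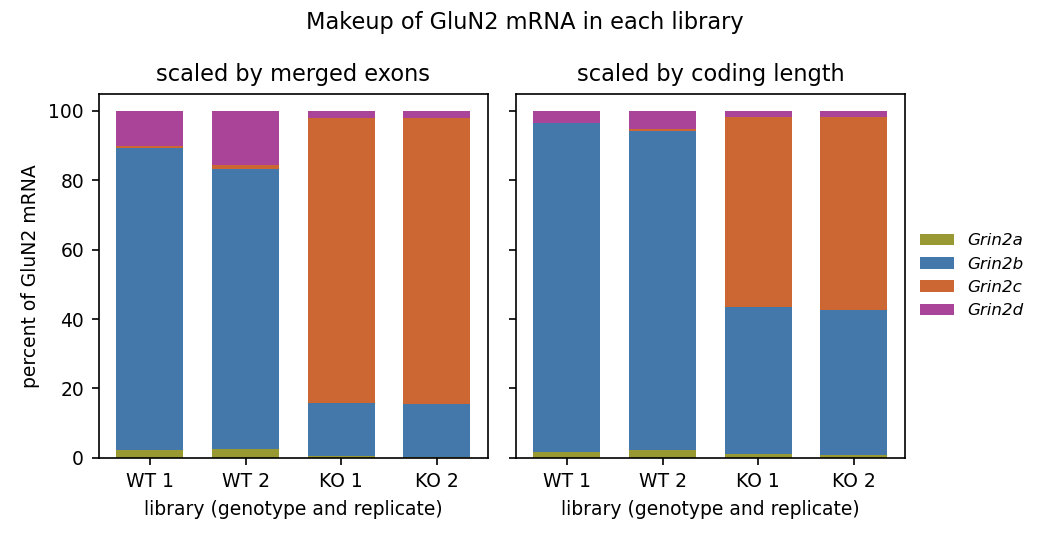
Share of each GluN2 gene in the summed GluN2 mRNA of each library, in percent, with counts divided by the length of merged exons (left) or of coding sequence (right). *Grin2b* takes the largest share in both WT libraries and *Grin2c* in both KO libraries, with 82.1% and 82.5% by merged exons and 55.3% ± 0.506 (SD, n = 2) by coding length.

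The summed GluN2 mRNA rose with *Grin2c*, from 15.1 and 12.2 CPM per kilobase in WT to 70.8 and 74.6 in KO (exact permutation p = 0.333). With *Grin1* at 2.05 CPM per kilobase in WT and 2.33 in KO, the log2 ratio of *Grin1* to the summed GluN2 mRNA was -2.89 and -2.57 in WT and -4.96 and -4.97 in KO (exact permutation p = 0.333). With *Grin2c* left out of the sum, a choice made after seeing the data, *Grin2b* made up 84.6% ± 4.19 (SD, n = 2) in WT and 85.9% ± 0.781 (SD, n = 2) in KO (exact permutation p = 1), and the log2 ratio of *Grin1* to the sum was -2.72 ± 0.23 (SD, n = 2) in WT and -2.46 ± 0.02 (SD, n = 2) in KO (exact permutation p = 0.333).

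The genes whose profile over the 4 libraries was nearest to that of a member were found by the root mean square difference of centred log2(CPM + 0.5). For *Grin2c*, which is outside the rule for such names since its WT libraries held under 10 counts, and was added after its values were seen, they were *Fam107a* with a difference of 0.191, *Etnppl* with 0.294 and *Htra1* with 0.345. *Fam107a* was counted 6 and 7 times in WT and 2291 and 2556 times in KO, close to *Grin2c* also in count. *Etnppl* had no count in either WT library and 799 and 822 counts in KO, so that its distance is set by the pseudocount. Only 1 gene lay within 0.25 of *Grin2c*. For *Grin1*, *Grin2a*, *Grin2b*, *Grin2d* and *Grin3a*, between 3478 and 7210 genes lay within this distance, so that their nearest genes, led by *Pvr*, *Psmd10*, *Ccdc85b*, *Sgta* and *Snx8*, single out no group.

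The genes around the receptor were followed in 6 lists. Of 93 listed genes, 89 were tested and 13 passed the threshold, 11 higher and 2 lower in KO, beside 7.33% higher and 0.57% lower among all genes. This balance moved with the setting, since 12 of 24 were higher without a filter, 12 of 25 with a replicate block and 15 of 35 without WT replicate 2. The increases were mostly in genes that handle the ligands of the receptor. The total was 35 without WT replicate 2, 24 without WT replicate 1 and 8 without KO replicate 2. In such fits a genotype has 1 library and the spread comes from the pair of the other genotype, which was closer in KO than in WT, so that these counts do not show which library the total depends on.

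For the coagonists glycine and D-serine, 5 of the 13 genes tested were higher in KO (38.5%, beside 7.33% of all genes), and the median log2 fold change of the list was 0.72. The 12 astrocyte markers were higher in the same libraries (summed level 262 to 277 CPM in WT and 3790 to 3990 CPM in KO), and their part in this rise was not tested. *Slc7a10*, which encodes the Asc-1 transporter that exchanges glycine and D-serine across the membrane, was counted 20 and 31 times in WT and 904 and 1261 times in KO, with an edgeR log2 fold change of 5.46 (SE 0.23, adjusted p = 6.33e-06). *Gldc*, which encodes the glycine-degrading subunit of the glycine cleavage system, rose from 24.4 and 29.6 CPM to 81.7 and 74.5 CPM, with an edgeR log2 fold change of 1.53 (adjusted p = 0.000886). *Slc1a4*, which encodes the neutral amino acid transporter ASCT1, rose by 0.92 and was the most abundant gene of the list (in CPM, as for the lists below) with WT libraries at 61.7 and 73.0 CPM and KO libraries at 127 and 129 CPM. *Phgdh* and *Psat1*, enzymes of serine synthesis, rose by 1.47 and 0.72 on the log2 scale. *Srr*, which encodes the serine racemase that forms D-serine, had 31.2 and 27.2 CPM in WT and 27.6 and 28.0 CPM in KO, with an edgeR log2 fold change of -0.07 (adjusted p = 0.854), and *Slc6a9*, which encodes the glycine transporter GlyT1, had 0.84 (edgeR adjusted p = 0.0613). *Phgdh*, *Psat1*, *Srr* and *Slc6a9* were named after their values were seen.

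Of the 11 genes of glutamate uptake and supply that were tested, 4 were higher in KO (36.4%, beside 7.33% of all genes). *Slc1a2*, which encodes the glutamate transporter GLT-1, rose from 113 and 89.5 CPM to 2026 and 1870 CPM, with an edgeR log2 fold change of 4.26 (SE 0.18, adjusted p = 6.33e-06), and was the most abundant of the list. *Slc7a11*, which encodes the cystine-glutamate exchanger xCT, rose from 14 and 15 to 574 and 464 counts, with an edgeR log2 fold change of 5.22 (adjusted p = 1.44e-05). *Slc1a3*, which encodes the transporter GLAST, rose by 2.95, and *Glul*, which encodes glutamine synthetase, by 2.84. Both were named after their values were seen. *Slc1a2* and *Slc1a3* are also astrocyte markers of the list above. The other 7 genes did not pass the threshold in edgeR, while DESeq2 called 1 gene of the list lower in KO and 6 genes passed with a replicate block (54.5% beside 13.3% of all genes). Among the 7 was the vesicular transporter gene *Slc17a6* at -0.59 on the log2 scale (edgeR adjusted p = 0.0951), also chosen after its values were seen.

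**Figure D5:**
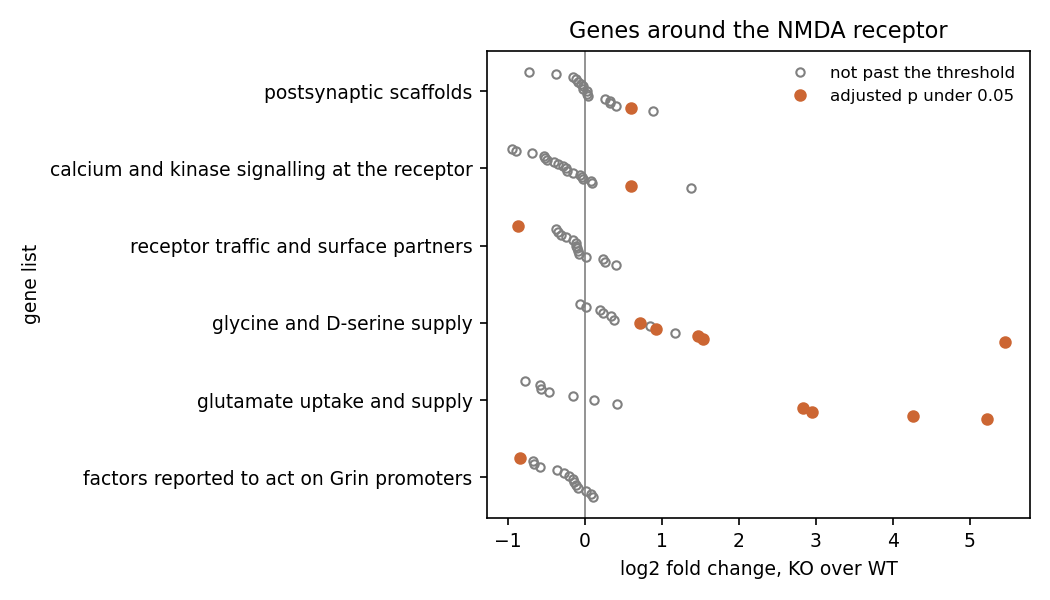
Log2 fold change between KO and WT of each tested gene in 6 lists of genes around the NMDA receptor, 1 point per gene, filled where the edgeR adjusted p was under 0.05. The filled points with the largest values belong to the supply of glycine and D-serine (5 of 13 genes) and of glutamate (4 of 11 genes). The scaffold and signalling lists hold 1 each (5.88% and 5.26%), beside 7.9% of all genes tested.

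The intracellular partners of the receptor were followed as scaffolds and as signalling genes. Of 17 genes of postsynaptic scaffolds, *Dlgap1*, which encodes a protein that links PSD-95 to SHANK proteins, was higher in KO by 0.60 on the log2 scale (edgeR adjusted p = 0.0434), and 16 did not pass, so that 5.88% were past the threshold beside 7.9% of all genes. With the offsets for GC content and length 3 scaffold genes passed (17.6% beside 16% of all genes). With block and offsets 4 passed (23.5% beside 18.7%), and with DESeq2 0 passed, beside 8.87%. The median of the list was 0.03. Its most abundant gene, *Dlg4*, which encodes PSD-95, had 252 and 271 CPM in WT and 237 and 274 CPM in KO. Of 19 genes of calcium and kinase signalling, *Camk2g*, which encodes the gamma subunit of the kinase CaMKII, was higher by 0.60 (log2, edgeR adjusted p = 0.0475), while 4 of the 19 genes had a positive log2 fold change and the median was -0.24. The 1 gene is 5.26% of the list beside 7.9% of all genes, but this share moved with the setting. DESeq2 called 1 gene higher and 3 lower in KO (21.1% beside 8.87% of all genes), and 7 genes passed with a replicate block (36.8% beside 13.3%) and 6 with the offsets for GC content and length (31.6% beside 16%). Without WT replicate 1 and without WT replicate 2 it was 6 and 8 genes, where 21.3% and 23.3% of all genes passed. The calmodulin gene *Calm3*, the most abundant of this list, had 473 and 643 CPM in WT and 442 and 475 CPM in KO. Its log2 fold change of -0.29 (edgeR adjusted p = 0.372) was -0.40 with the offsets (0.041), -0.50 without WT replicate 1 (7.76e-05), -0.06 without WT replicate 2 (0.811) and -0.19 with library size only (0.689). Without KO replicate 1 or KO replicate 2, the log2 fold change of *Dlgap1* was 0.65 and 0.57 and that of *Camk2g* 0.69 and 0.52, of similar size, but neither gene passed (edgeR adjusted p = 0.279 and 0.488, and 0.17 and 0.553), and with DESeq2 the adjusted p of *Dlgap1* was 0.0502.

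Of 15 genes of receptor traffic and surface partners, *Lin7c* was lower in KO. It encodes a PDZ protein of the complex that carries GluN2B along dendrites. Its level was 275 and 204 CPM in WT and 144 and 119 CPM in KO, with an edgeR log2 fold change of -0.87 (adjusted p = 0.0253). This 1 gene is 6.67% of the list, beside 7.9% of all genes called in either direction and 0.57% called lower. The share of the list was also 6.67% with a replicate block, beside 13.3% of all genes. It was the same with the offsets for GC content and length, beside 16%. The most abundant gene, *Lrp8*, which encodes a reelin receptor, had 385 and 317 CPM in WT and 316 and 339 CPM in KO. Of 14 genes whose products are reported to act on *Grin* promoters, *Mef2c*, which encodes an activity-regulated transcription factor, was lower, from 70.3 and 55.5 CPM to 34.4 and 35.9 CPM, with an edgeR log2 fold change of -0.84 (adjusted p = 0.0216). The repressor gene *Rest*, named after its values were seen, had 22.8 and 20.1 CPM in WT and 24.1 and 21.3 CPM in KO, and the most abundant gene, *Gtf2i*, had 334 and 324 CPM in WT and 315 and 352 CPM in KO. *Mef2c*, the 1 gene called, is 7.14% of the promoter factor list, beside 7.9% of all genes called in either direction and 0.57% called lower. With DESeq2 4 genes of the list were lower (28.6% beside 1.47% of all genes lower and 8.87% in either direction). With a replicate block 4 passed (28.6% beside 13.3% in either direction). Without WT replicate 1 and without WT replicate 2, 3 and 6 passed, where 21.3% and 23.3% of all genes did. Without KO replicate 2 *Lin7c* had a log2 fold change of -0.73 and did not pass (edgeR adjusted p = 0.215). *Mef2c* kept a similar size without KO replicate 1 or KO replicate 2 (-0.79 and -0.86) and did not pass (0.159 and 0.106). Scaled to the neuronal markers, *Lin7c* had -0.34 and *Mef2c* -0.31, and neither passed (edgeR adjusted p = 0.193 and 0.248). With the offsets for GC content and length they had -0.51 and -0.53 and passed (edgeR adjusted p = 0.0253 and 0.0225).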

How the data were processed

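For every library the authors deposited the read count of each Ensembl gene, not normalised. The submitters' processing notes name CASAVA 1.8.2, STAR 2.5.2a, featureCounts 1.5.0-p1 and the builds mm10 and GRCm38. The annotation release and the strand setting are not given in the sources used here. MeDIP data were not analysed here.

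Of 55573 gene identifiers, 55480 were matched to GENCODE M21 (GRCm38), which supplied symbols, positions and lengths. Counts were filtered with edgeR's expression filter (minimum count 10), scaled by TMM and tested with edgeR's quasi-likelihood test (edgeR 4.0.16, R 4.3.3) in a model of genotype alone. Benjamini-Hochberg adjustment was over all 16832 genes tested. Standard errors were derived from the test statistic, and intervals cover 95%. The floor of 3 counts and the counting interval cover counting error only.

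The members and lists were chosen with earlier results of these data known. Named are all members and, per list, the 2 largest rises and 2 largest falls past the threshold and the most abundant gene. Promoter letters are from RefSeq (GRCm38.p6).

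Alternatives were DESeq2 1.42.0, limma-voom (limma 3.58.1), other scalings, filters, thresholds and lengths, the replicate number as a block, offsets for GC content and length (splines with 5 degrees of freedom, GC content from the longest transcript), and each library left out. The procedures were tested on simulated counts.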

Additional observations from a re-analysis of the deposited data

How the results depend on the processing

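*Grin2c* kept its direction under every alternative in which it was tested, with log2 fold changes from 8.56 to 9.32. With all 4 libraries it kept its side of the threshold, with a highest adjusted p of 7.4e-05 (limma-voom). These settings refit all or part of the same counts, 12 in WT and 5280 in KO. *Grin2c* passed the low-count filter through its KO libraries alone, so that this agreement is no support. With at least 10 counts in every library it was not tested, nor was *Grin3b*, and 0 members passed. In that setting, only the 5 other members were tested.

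Of all genes, 1329 differed. The number was 2363 without a filter, 883 with at least 10 counts in every library, 2701 with GC and length offsets, 740 at an adjusted p under 0.01, 4539 when scaled to the neuronal markers, and 951 to 4209 when single libraries were left out (3878 without WT replicate 1, 4209 without WT replicate 2). A genotype left with 1 library is assumed to vary like the other. The share that was higher in KO fell from 92.8% to 83.5% with DESeq2, 75.8% without a filter, 70.5% with the offsets, 66.5% without WT replicate 1 and 48.2% without WT replicate 2. Of the genes in the 6 lists, 13 differed. The number was 24 without a filter, 23 with the offsets, 27 when scaled to the neuronal markers, 7 and 21 at thresholds of 0.01 and 0.1, and 8 to 35 when single libraries were left out. With DESeq2 it was 19, of which 9 were lower in KO.

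Replicate numbers are shared between the genotypes, but no label gives them a common origin, and the deviations of the 2 number pairs correlated at 0.183. A replicate block gave 2244 genes (72.4% of them higher in KO), of which 25 are in the lists, and with block and offsets 3155 genes (66.3% higher), also 25 in the lists. With the block *Grin2c* had 8.82 and *Grin3a* -0.00131, and with block and offsets *Grin2b* and *Dlg4* had 0.08 each and *Lrp8* 0.000627.

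Scaling to the neuronal markers, chosen after seeing the data, brought *Grin1* (0.70) past the threshold, so that with *Grin2c* 2 members passed, and turned the sign of *Grin2b* (0.47), *Grin2d* (0.27), *Dlg4* (0.48), *Calm3* (0.22) and *Lrp8* (0.42), which follows from the shift of all genes. Further signs turned among genes past no threshold. *Grin2b* had 0.07 with library size only and 0.07 with the offsets, *Dlg4* had 0.07 and 0.08 in these settings, 0.00737 with the upper quartile and 0.00417 with at least 10 counts in every library, and *Lrp8* had 0.02 with library size only. *Grin3a* had -0.00207 with DESeq2, -0.00115 with limma-voom and -0.00184 with DESeq2 size factors. With single libraries left out, log2 fold changes ran from -0.24 to 0.39 for *Grin2a*, -0.26 to 0.16 for *Grin2b*, -0.39 to -0.08 for *Grin2d*, -0.19 to 0.20 for *Grin3a*, -0.14 to 0.08 for *Dlg4*, -0.24 to 0.04 for *Lrp8* and -0.06 to 0.11 for *Gtf2i*.

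The difference in the share of *Grin2b* among GluN2 mRNA, -68.6 percentage points, was -51.3 per coding length, -47.5 without division by length and 1.34 without *Grin2c*. The log2 ratio of *Grin1* to the GluN2 sum differed by -2.23, and by -0.92, -0.79 and 0.25 in these settings. Where no construction of the setting shows it, the cause was not tested. With 2 libraries a genotype, members of low count such as *Grin2a* and *Grin3b* have intervals that include more than a 1.5-fold change in either direction or, for *Grin3b*, upward.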

Other observations

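Marker lists of 3 cell types that the report does not use held few counts. The 6 endothelial markers summed to 17.5 and 16.4 CPM in WT and to 16.3 and 18.6 CPM in KO. The 6 microglia markers summed to 23.7 and 28.7 CPM in WT and to 43.0 and 52.4 CPM in KO, with 1 of the 5 tested higher in KO in edgeR, and their marker *Aif1* had at most 3 counts in any library. The 6 erythroid markers summed to 30.8 and 44.7 CPM in WT and to 18.9 and 19.2 CPM in KO, with 1 of the 5 tested lower in KO. Radial glia markers summed to 734 and 778 CPM in WT and to 992 and 933 CPM in KO.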
